A study of Mus musculus with 16 samples.

Results

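The collagen genes are described here across neonatal mouse hearts with and without *Lrrc10*, after sham surgery and post-MI. They were taken as the protein-coding genes whose symbol has the form Col, a number, a and a number, which gave 44 of the 51912 genes in the table. By the kind of collagen that they encode, 11 are fibrillar, 6 belong to basement membrane (*Col4a1* to *Col4a6*) and 27 are other collagens. The 27 comprise 9 fibril-associated (FACIT) genes, 6 type VI genes, 3 short-chain genes, 2 multiplexin genes, 4 transmembrane genes, and *Col7a1*, *Col26a1* and *Col28a1*. The filter on low counts, which asks that the libraries of every group hold 10 or more counts together, left 41 genes for testing. *Col2a1*, *Col6a4* and *Col19a1* did not pass it.

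Ventricles were sequenced as bulk tissue in 4 groups of 4 libraries. WT SH are wild-type C57BL/6J mice from Jackson Laboratories after a sham operation. KO SH are mice with a whole-body deletion of *Lrrc10* (*Lrrc10*-/-) after the same operation. They were generated in a C57BL/6 background, for which the paper names no substrain. WT MI and KO MI are the same genotypes after ligation of the left anterior descending coronary artery. Surgery was on postnatal day 1, the tissue was taken 7 days later, and it held the whole ventricles, from above and below the ligature. *Lrrc10* encodes a leucine-rich repeat protein of cardiomyocytes, and all 8 KO libraries held 0 counts of it, against 1075 to 1850 in the WT libraries. The libraries held between 33783874 and 57470159 counts, and 3 counts corresponded to between 0.0577 and 0.0858 counts per 1000000 counts of the library (CPM). The 8 cardiomyocyte markers together were at 64733 CPM or more in every library. The groups were described as sex-balanced, but Y-linked genes were expressed in all 4 WT SH libraries and in 6 of the other 12. In comparisons with WT SH, sex is thus not fully separated from genotype or surgery. Nothing in the sources ties the libraries to litters, and p-values measure the spread between these libraries.

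Collagens are proteins of 3 chains wound into a helix, and most are secreted into the extracellular matrix. In the heart, fibroblasts make the fibrils of type I and type III collagen that hold the myocardium together and that accumulate in a scar. Type IV collagen is a network in the basement membrane around cardiomyocytes and capillaries, and FACIT and type VI collagens link fibrils to each other and to cells.

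Per kilobase of transcript, the collagen genes spanned more than 4 orders of magnitude. *Col3a1*, the chain of type III collagen, was the highest with a mean of 169 CPM per kilobase over all libraries. It was followed by the major basement membrane chains *Col4a1* (144) and *Col4a2* (95.9) and by the type I chains *Col1a1* (82.8) and *Col1a2* (62.1), all in CPM per kilobase. Among the other collagens, *Col6a1*, *Col15a1* and *Col14a1* had the highest means, 26.3, 26.1 and 19.7 CPM per kilobase. *Col6a1* is a chain of type VI collagen, *Col15a1* encodes a multiplexin of the basement membrane zone, and *Col14a1* encodes a FACIT collagen. The third basement membrane gene in this order was *Col4a5* with 9.5 CPM per kilobase. *Col19a1* was lowest, with 0 to 8 counts in any library.

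**Figure D1:**
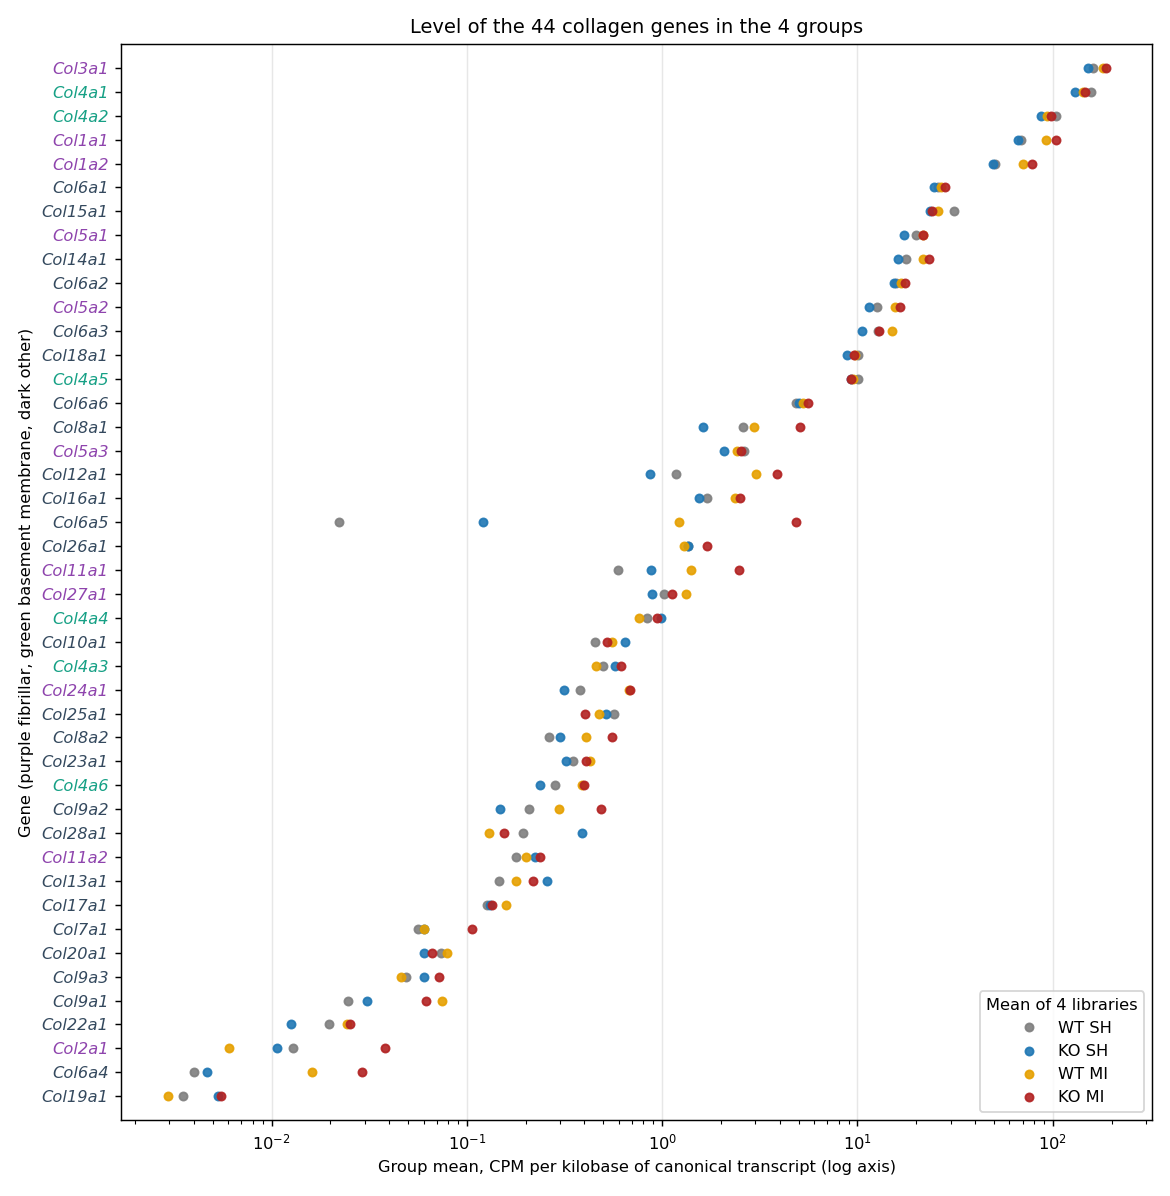
Mean level of each of the 44 collagen genes in the 4 groups, in CPM per kilobase of canonical transcript on a log axis, ordered by the mean over all libraries. Most genes have 4 points close together, while those of *Col6a5* run from 0.0222 in WT SH to 4.85 in KO MI.

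Summed over the 11 genes, fibrillar collagen stood at 1867 ± 139 CPM in WT SH, 1756 ± 69.0 in KO SH, 2267 ± 203 in WT MI and 2428 ± 198 in KO MI (SD, n = 4). The WT MI libraries lay between 2016 and 2471 CPM and the KO MI libraries between 2208 and 2602, while no SH library was above 2013. The basement membrane genes together stood at 1821 ± 125 CPM in WT SH, 1521 ± 39.5 in KO SH, 1652 ± 23 in WT MI and 1712 ± 270 in KO MI. Their KO SH libraries, 1472 to 1568 CPM, were all below the WT SH libraries, 1731 to 2007, and the KO MI libraries spread from 1446 to 2088 CPM. The endothelial markers, 8 genes, summed to 934 to 958 CPM in WT SH and 863 to 908 in KO SH, the 8 smooth muscle and pericyte markers to 656 to 694 and 620 to 652, and the 8 cardiomyocyte markers to 76295 to 89222 and 68410 to 70766, so that these sums too were all lower in KO SH. In WT MI these marker sums were 798 to 886, 517 to 590 and 67412 to 70635 CPM, also all below WT SH, as they were in KO MI. The basement membrane sums of the WT MI libraries, 1622 to 1674 CPM, were all below those of WT SH too. None of these 24 marker genes was a DEG of KO SH against WT SH, and their part in the basement membrane level was not tested. The other collagens were at 762 CPM in WT SH, 669 in KO SH, 828 in WT MI and 881 in KO MI. Fibrillar genes thus held 41.9% ± 1.11 of collagen CPM in WT SH, 44.5% ± 0.521 in KO SH, 47.7% ± 2.11 in WT MI and 48.5% ± 1.96 in KO MI. The share of basement membrane genes was 40.9% in WT SH, 38.6% in KO SH, 34.9% in WT MI and 34.0% in KO MI. Class sums are given without a test. In bulk tissue, fewer cells of a type and less RNA per cell cannot be told apart.

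**Figure D2:**
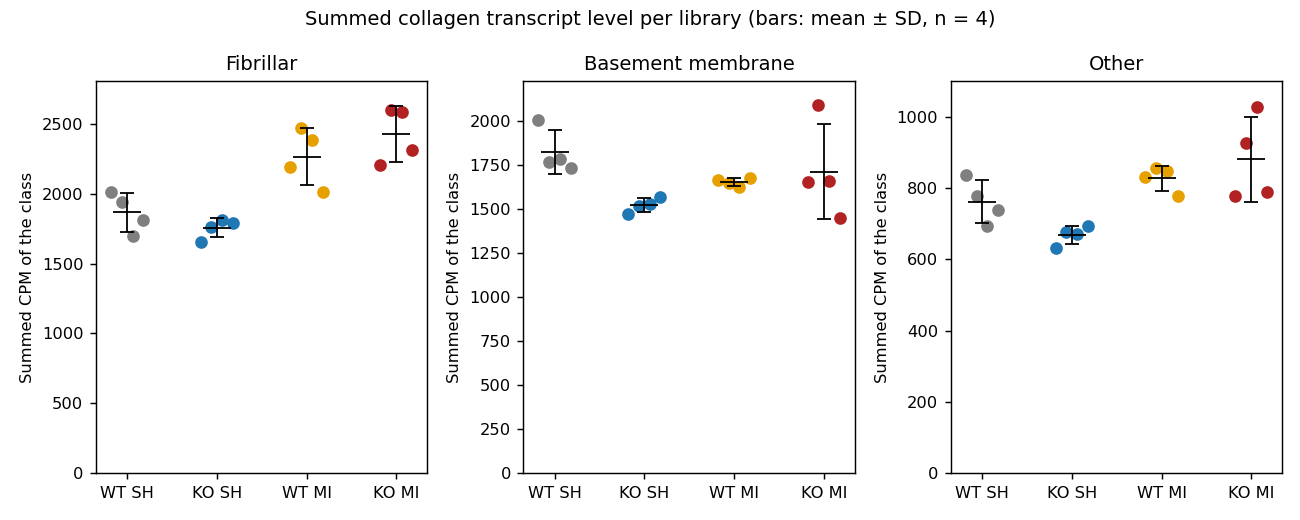
Summed CPM of the fibrillar, basement membrane and other collagen genes in each of the 16 libraries, with the mean and SD of each group of 4. All 8 MI libraries are above the SH libraries for fibrillar genes, by a small margin for the lowest one, and KO SH has the lowest mean of the 4 groups in all panels.

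The first comparison asked which collagen genes differed between infarcted and sham-operated WT hearts. Genes were called DEGs where edgeR's quasi-likelihood test gave p under 0.1 after Benjamini-Hochberg adjustment over all 20159 genes tested and where the log2 fold change was 0.5 or more in size. In WT MI 4 of the 41 collagen genes were higher and 0 lower, that is 9.76%, and of all genes tested 2.13% were higher and 0.645% lower. The 4 were *Col6a5*, *Col12a1*, *Col11a1* and *Col24a1*. The median log2 fold change was 0.33 for fibrillar, −0.13 for basement membrane and 0.24 for other collagens, and 0.00 for all genes tested.

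*Col6a5* (ENSMUSG00000091345, chromosome 9 of GRCm39, 105733270 to 105837858, minus strand) encodes a chain of type VI collagen. Its counts were 2, 5, 6 and 20 in the WT SH libraries and 663, 714, 463 and 272 in the WT MI libraries. On the CPM scale the WT SH libraries were at 0.0384, 0.134, 0.172 and 0.484 and the WT MI libraries at 13.9, 15.4, 10.4 and 5.91. Every WT MI library was above every WT SH library, and the log2 fold change was 5.81 (standard error, SE, 1.28, adjusted p = 0.0203, edgeR). The WT SH counts are low, from 2 to 20, so the size of this fold change is known only roughly. *Col6a5* lies between *Col6a6* and *Col6a4* on the same strand of chromosome 9. *Col6a6*, a chain of the same family, had group means of 44.9 CPM in WT SH, 46.5 in KO SH, 48.5 in WT MI and 51.4 in KO MI and was a DEG in none of the comparisons. *Col6a4* had at most 17 counts in a library.

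*Col12a1* (ENSMUSG00000032332, chromosome 9 of GRCm39, 79506268 to 79626135, minus strand) encodes a FACIT collagen of stretched tissue such as tendon. It was at 13.8, 14.1, 9.7 and 18.4 CPM in WT SH and at 36.5, 43.9, 36.8 and 25.2 CPM in WT MI, with no overlap. The log2 fold change came to 1.34 (SE 0.31, adjusted p = 0.0253, edgeR). *Col11a1* (ENSMUSG00000027966, chromosome 3 of GRCm39, 113824134 to 114014367, plus strand), a minor fibrillar chain that is abundant in cartilage, rose from 3.61, 3.93, 5.26 and 5.63 CPM to 10.6, 15.1, 9.47 and 8.41 CPM. All WT MI libraries were above all WT SH libraries, with a log2 fold change of 1.25 (SE 0.34, adjusted p = 0.0523, edgeR). This call was lost without WT SH replicate 1, WT SH replicate 2 or WT MI replicate 2, with adjusted p-values of 0.131 to 0.167 (edgeR). It was also lost with a yes-or-no covariate for summed Y-linked expression above 10 CPM (adjusted p = 0.143, edgeR). *Col24a1* (ENSMUSG00000028197, chromosome 3 of GRCm39, 144998233 to 145257766, plus strand), a minor fibrillar chain, was at 2.63, 3.13, 2.69 and 2.37 CPM in WT SH and at 4.77, 4.95, 5.02 and 4.58 CPM in WT MI. The groups did not overlap and the log2 fold change was 0.84 (SE 0.17, adjusted p = 0.0147, edgeR).

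Each of these 4 genes was higher post-MI in both genotypes, and the 250 bases before the start of its canonical transcript are shown so that their start regions can be compared. The bases come from GRCm39, run 5′ to 3′ on the strand of the gene, and carry in capitals the matches on either strand to GGGCGG (the GC box) and CCAAT, which do not overlap.
*Col6a5*, chr9:105837859-105838108, minus strand: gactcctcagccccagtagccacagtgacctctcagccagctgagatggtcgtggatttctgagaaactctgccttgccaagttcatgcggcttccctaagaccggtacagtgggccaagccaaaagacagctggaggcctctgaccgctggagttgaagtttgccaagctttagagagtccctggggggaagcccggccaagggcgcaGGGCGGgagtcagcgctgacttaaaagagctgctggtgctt
*Col12a1*, chr9:79626136-79626385, minus strand: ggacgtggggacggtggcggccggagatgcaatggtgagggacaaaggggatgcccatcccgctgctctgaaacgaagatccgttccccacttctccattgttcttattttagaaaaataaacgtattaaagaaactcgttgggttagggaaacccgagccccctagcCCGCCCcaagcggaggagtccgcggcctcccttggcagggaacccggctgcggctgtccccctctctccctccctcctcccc
*Col11a1*, chr3:113823884-113824133, plus strand: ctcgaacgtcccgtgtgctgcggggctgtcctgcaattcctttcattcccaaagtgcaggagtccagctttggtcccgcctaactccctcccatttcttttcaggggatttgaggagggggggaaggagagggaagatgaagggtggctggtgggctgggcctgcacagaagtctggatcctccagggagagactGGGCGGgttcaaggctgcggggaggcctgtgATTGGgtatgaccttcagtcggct
*Col24a1*, chr3:144997983-144998232, plus strand: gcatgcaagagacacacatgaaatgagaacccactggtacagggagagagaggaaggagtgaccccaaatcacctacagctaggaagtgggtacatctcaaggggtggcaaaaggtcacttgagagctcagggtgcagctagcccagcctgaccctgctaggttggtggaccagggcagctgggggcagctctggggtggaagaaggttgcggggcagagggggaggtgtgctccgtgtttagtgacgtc
GGGCGG was found once upstream of *Col6a5*, *Col12a1* and *Col11a1*, CCAAT once upstream of *Col11a1*, and neither upstream of *Col24a1*. TATAAA was not in these 4 windows, and TGANTCA, the AP-1 motif, was in none of the 44 collagen windows. Over the same window, TGANTCA was found before 6.21%, GGGCGG before 36.5%, CCAAT before 36.5% and TATAAA before 11.9% of the 21426 protein-coding genes of the table. Of the 44 collagen genes, 21 had GGGCGG, 15 had CCAAT and 7 had TATAAA.

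The major fibrillar chains changed by less than the fold threshold in WT hearts. *Col1a1*, a chain of type I collagen, was at 447, 428, 362 and 400.4 CPM in WT SH and at 499.6, 643, 590.0 and 459 CPM in WT MI. This gave a log2 fold change of 0.42 (SE 0.10, adjusted p = 0.0333, edgeR). That of *Col1a2*, the partner chain, was 0.48 (SE 0.0949, adjusted p = 0.0124, edgeR). For *Col3a1* the libraries overlapped, at 961, 936, 820.3 and 850.1 CPM in WT SH and 982, 1049, 1039 and 933 CPM in WT MI (log2 fold change 0.17, adjusted p = 0.175, edgeR). With no minimum fold change, 10 collagen genes were higher in WT MI and 1 lower, against 3.11% and 2.21% of all genes tested. The lower one was *Col15a1*, at 187, 189, 163 and 176 CPM in WT SH and 141, 155, 158 and 142 CPM in WT MI (log2 fold change −0.27, SE 0.0693, adjusted p = 0.0447, edgeR).

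The same comparison in hearts without *Lrrc10* gave 13 collagen genes that were higher and 1 that was lower in KO MI than in KO SH, out of 41. The 13 are 31.7% of those tested, and of all genes tested 5.31% were higher and 2.11% lower. The higher genes were 5 fibrillar genes (*Col1a1*, *Col1a2*, *Col5a2*, *Col11a1* and *Col24a1*), 1 basement membrane gene (*Col4a6*) and 7 others (*Col6a5*, *Col8a1*, *Col8a2*, *Col9a2*, *Col12a1*, *Col14a1* and *Col16a1*), and *Col28a1* was lower. The median log2 fold change was 0.43 for fibrillar, 0.14 for basement membrane and 0.33 for other collagens, and −0.01 for all genes tested. All 10 fibrillar genes tested had a log2 fold change above 0, as did 36 of the 41 collagen genes and 9687 of all 20159 genes tested. The 4 DEGs of WT MI were all among the 14 of KO MI, of which they made up 28.6%. The comparison of KO SH with WT SH uses the same KO SH libraries as this one.

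Type I collagen rose in both of its chains. *Col1a1* was at 367, 387, 418 and 398 CPM in KO SH and at 533, 712, 633 and 577 CPM in KO MI. Its log2 fold change was 0.65 (SE 0.10, adjusted p = 0.00129, edgeR), with all KO MI libraries above all KO SH libraries. *Col1a2* was at 246, 271, 270.3 and 269 CPM in KO SH and at 362, 479.6, 472 and 373 CPM in KO MI, which do not overlap. The log2 fold change was 0.68 (SE 0.10, adjusted p = 7.53e-04, edgeR). Without KO MI replicates 2 and 3 together, a choice made after seeing the data, both chains fell under the fold threshold. The log2 fold changes were then 0.49 for *Col1a1* and 0.47 for *Col1a2*. *Col5a2*, a type V chain that takes part in starting fibrils, was at 78.9, 85.4, 92.1 and 87.8 CPM in KO SH and at 109, 155, 128 and 107 CPM in KO MI. The log2 fold change came to 0.53 (SE 0.0946, adjusted p = 0.00249, edgeR), and fell to 0.41 without KO MI replicate 2 and to 0.4964 without KO SH replicate 1, under the fold threshold. *Col3a1* was higher in every KO MI library as well, with a log2 fold change of 0.31 (SE 0.0625, adjusted p = 0.00549, edgeR), which is under the fold threshold.

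Both minor fibrillar chains that were DEGs in WT hearts rose in KO hearts too. *Col24a1* was at 2.84, 2.08, 2.13 and 1.97 CPM in KO SH and at 3.58, 4.06, 6.96 and 5 CPM in KO MI, all of them higher, with a log2 fold change of 1.12 (SE 0.17, adjusted p = 0.0012, edgeR). *Col11a1* was at 6.42, 6.64, 7.39 and 6.69 CPM in KO SH and at 12.8, 39.9, 12.9 and 10.7 CPM in KO MI. The groups did not overlap, KO MI replicate 2 stood far above the other 3, and the log2 fold change was 1.49 (SE 0.32, adjusted p = 0.00771, edgeR). Without KO MI replicate 2 it was 0.84, still a DEG.

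Among the FACIT genes 4 of the 8 tested rose. *Col12a1* was at 7.19, 11, 10.5 and 12.5 CPM in KO SH and at 27.1, 90.0, 34 and 32.2 CPM in KO MI, with replicate 2 far above the rest. This gave a log2 fold change of 2.16 (SE 0.32, adjusted p = 8.84e-04, edgeR) and 1.60 without KO MI replicate 2. *Col14a1* was at 100, 103, 107 and 106 CPM in KO SH and at 140.2, 171, 165 and 126 CPM in KO MI, without overlap (log2 fold change 0.54, SE 0.0788, adjusted p = 8.84e-04, edgeR). Without KO MI replicate 2 or 3 its log2 fold change was 0.47 or 0.49, under the fold threshold. *Col16a1* was at 7.37, 8.86, 9.68 and 9.05 CPM in KO SH and at 12.6, 18, 12.5 and 14 CPM in KO MI (log2 fold change 0.71, SE 0.12, adjusted p = 0.00194, edgeR). *Col9a2*, a type IX chain known from cartilage, was at 0.541, 0.27, 0.334 and 0.577 CPM in KO SH and at 0.549, 3.19, 1.08 and 0.856 CPM in KO MI, so that the groups overlapped. Its log2 fold change of 1.72 (SE 0.46, adjusted p = 0.0229, edgeR) became 0.94 without KO MI replicate 2 and was then no longer a DEG (adjusted p = 0.137, edgeR).

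Both type VIII chains, short-chain collagens of vessel walls and of the matrix under endothelium, were higher. *Col8a1* was at 6.6, 8.18, 8.85 and 9.39 CPM in KO SH and at 15.7, 59.5, 18.8 and 9.15 CPM in KO MI. Replicate 7 lay within the range of KO SH and replicate 2 was far above, and the log2 fold change was 1.65 (SE 0.38, adjusted p = 0.0105, edgeR). Without KO MI replicate 2 it was 0.83, still a DEG. *Col8a2* was at 1.24, 1.08, 1.44 and 1.5 CPM in KO SH and at 1.79, 4.04, 2.39 and 1.47 CPM in KO MI (log2 fold change 0.89, SE 0.25, adjusted p = 0.0301, edgeR). It was no longer a DEG without KO MI replicate 2 (log2 fold change 0.52, adjusted p = 0.144, edgeR).

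*Col6a5* was at 0.947, 0.729, 1.34 and 1.5 CPM in KO SH and at 3.52, 7.72, 156 and 13.8 CPM in KO MI, from counts of 42, 27, 64 and 57 and 173, 392, 8070 and 514. The groups did not overlap, and KO MI replicate 3 held more than 10 times the level of any other library of the study. The log2 fold change was 5.32 (SE 0.98, adjusted p = 0.00288, edgeR), and 2.86 without KO MI replicate 3, still a DEG. *Col4a6*, a basement membrane chain of low level, was at 1.4, 1.46, 1.61 and 1.81 CPM in KO SH and at 2.09, 2.93, 2.93 and 2.65 CPM in KO MI (log2 fold change 0.76, SE 0.21, adjusted p = 0.028, edgeR). The abundant chains *Col4a1*, *Col4a2* and *Col4a5* had log2 fold changes of 0.18, 0.17 and 0.00 and were not DEGs.

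**Figure D3:**
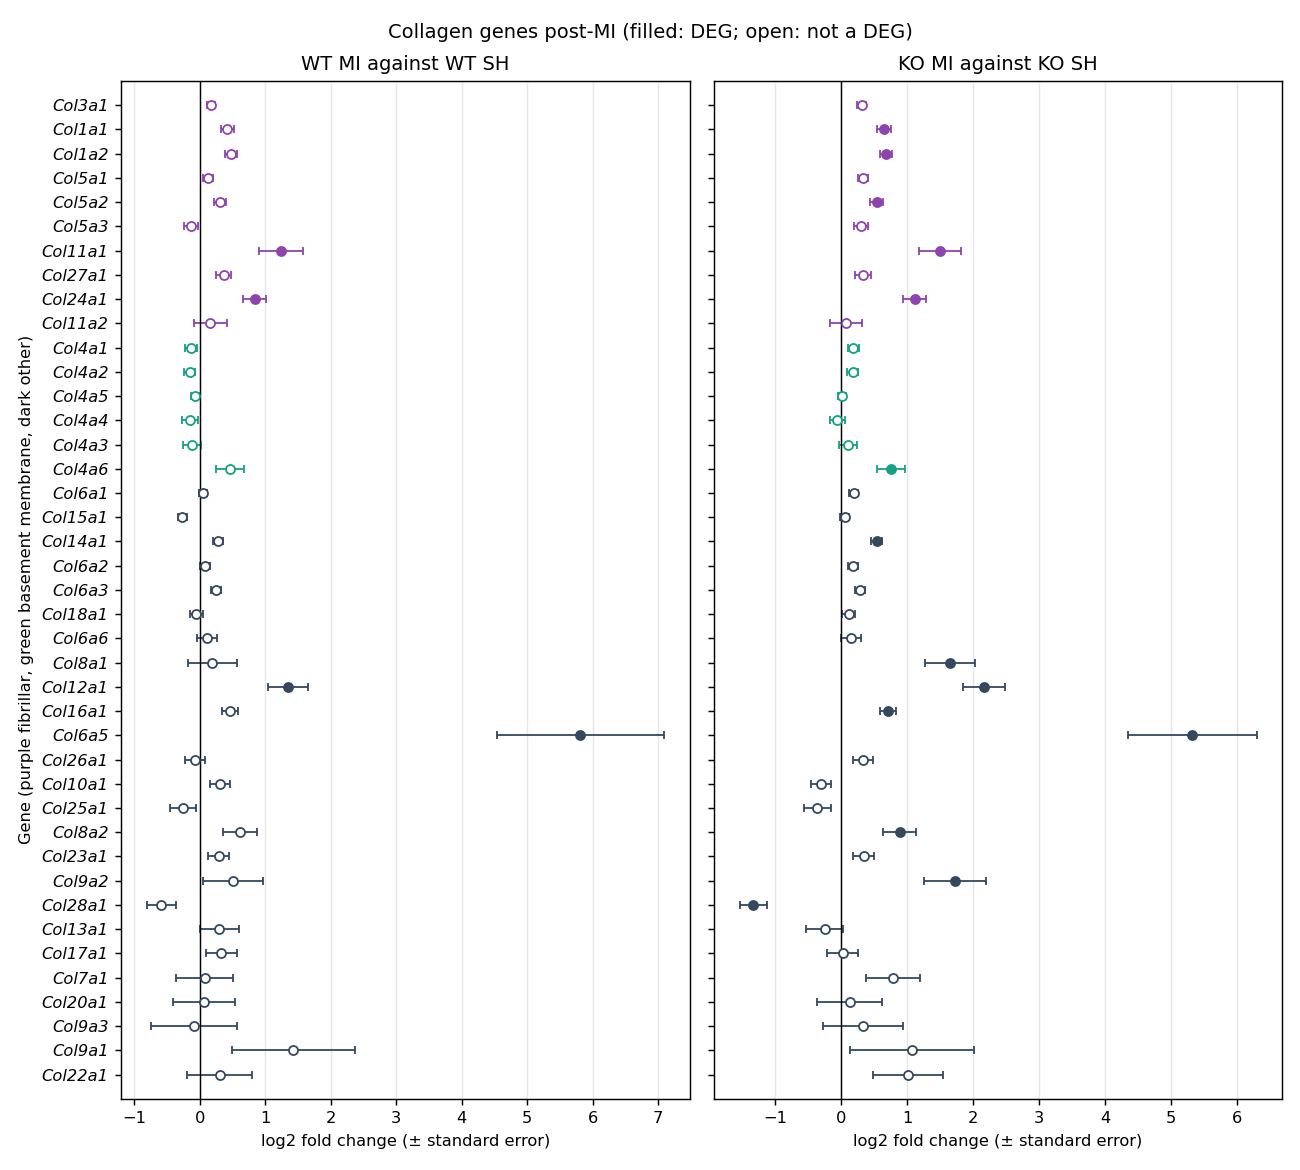
Log2 fold change with standard error of the 41 collagen genes tested, for WT MI against WT SH (left) and KO MI against KO SH (right), with DEGs filled and the genes of each class ordered by level. *Col6a5* is the largest in both panels, and most fibrillar genes are above 0 while the abundant basement membrane genes stay near 0.

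Sham-operated KO hearts were compared with sham-operated WT hearts to see how the genotypes differ without an infarct. Y-linked genes were expressed in all 4 WT SH libraries but not in KO SH replicates 1 and 2. Sex and genotype are therefore not fully separated in this comparison. In KO SH 2 collagen genes were higher and 0 lower than in WT SH, which is 4.88% of the 41, and of all genes tested 2.48% were higher and 2.53% lower. The share is thus near the background. The median log2 fold change was −0.12 for fibrillar, −0.19 for basement membrane and −0.06 for other collagens, and 0.01 for all genes tested. *Col28a1* (ENSMUSG00000068794, chromosome 6 of GRCm39, 7997102 to 8192617, minus strand) encodes a collagen known from the peripheral nervous system. It was at 1.13, 0.855, 0.972 and 0.871 CPM in WT SH and at 1.85, 1.78, 1.75 and 2.31 CPM in KO SH, and all KO SH libraries were higher. Its log2 fold change was 1.0 (SE 0.20, adjusted p = 0.00676, edgeR). Post-MI the difference between genotypes was not detected, with 0.694, 0.387, 0.652 and 0.825 CPM in WT MI and 0.63, 0.906, 0.655 and 0.856 CPM in KO MI (adjusted p = 0.737, edgeR). From KO SH to KO MI *Col28a1* fell by 1.34 on the log2 scale (SE 0.21, adjusted p = 0.0011, edgeR), and from WT SH to WT MI the log2 fold change was −0.59 (adjusted p = 0.169, edgeR). The 6 Schwann cell markers summed to 7.30 to 8.73 CPM in WT SH, 6.93 to 8.39 in KO SH, 6.05 to 7.02 in WT MI and 5.71 to 7.25 in KO MI. Of the 5 that were tested none was a DEG in a comparison of 2 groups, with a median log2 fold change of −0.24 in KO SH against WT SH, −0.49 in WT MI against WT SH and −0.50 in KO MI against KO SH, and their part in the *Col28a1* values was not tested.

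*Col10a1* (ENSMUSG00000039462, chromosome 10 of GRCm39, 34265971 to 34273081, plus strand), a short-chain collagen known from growth plate cartilage, was at 1.19, 1.42, 1.69 and 1.35 CPM in WT SH and at 1.74, 1.97, 2.13 and 2.26 CPM in KO SH. The groups did not overlap and the log2 fold change was 0.52 (SE 0.16, adjusted p = 0.047, edgeR). The call was lost without WT SH replicate 1, KO SH replicate 3 or KO SH replicate 4, with adjusted p-values of 0.110 to 0.147 (edgeR). In the MI groups *Col10a1* was at 1.74 CPM in WT MI and 1.64 CPM in KO MI. By edgeR *Col6a5* was not a DEG of KO SH against WT SH (log2 fold change 2.48, SE 1.66, adjusted p = 0.3996). Nor was *Col13a1* (log2 fold change 0.82, SE 0.29, adjusted p = 0.1003, edgeR). Both were DEGs of that comparison with DESeq2.

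With no minimum fold change, 5 collagen genes were lower and 2 higher in KO SH, against 7.22% lower and 5.11% higher of all genes tested. *Col15a1* was at 187, 189, 163 and 176 CPM in WT SH and 124, 141, 134 and 141 CPM in KO SH, and fell by 0.41 on the log2 scale (SE 0.0694, adjusted p = 0.00197, edgeR). *Col4a1* was at 1119, 1011, 1022 and 996 CPM in WT SH and 825, 866, 848 and 881 CPM in KO SH, and *Col4a2* at 803, 673, 683 and 656 CPM in WT SH and 573, 573, 601 and 608 CPM in KO SH. Both had every KO SH library below every WT SH library, and fell by 0.28 and 0.26 on the log2 scale (adjusted p = 0.0549 and 0.063, edgeR). *Col6a3* and *Col5a3* fell by 0.27 and 0.35 on the log2 scale (adjusted p = 0.0383 and 0.0583, edgeR). In KO MI against WT MI the log2 fold changes of *Col15a1*, *Col4a1* and *Col4a2* were −0.09, 0.04 and 0.07.

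Infarcted KO hearts were compared with infarcted WT hearts to see whether collagen expression differed where regeneration was the question of the study. None of the 41 collagen genes was a DEG between KO MI and WT MI in edgeR or in DESeq2, where 0.57% of all genes tested were higher and 1.16% lower in KO MI by edgeR. An unadjusted p under 0.05 was found for 7 of the 41 genes by edgeR and for 7 by DESeq2. Of all 20159 genes tested, 2503 had one by edgeR. With no minimum fold change the edgeR count was also 0, against 208 higher and 411 lower of all 20159 genes tested. By DESeq2 *Col4a3* (log2 fold change 0.42, adjusted p = 0.0751) and *Col6a3* (−0.23, adjusted p = 0.0998) were under 0.1. Both were under the fold threshold. The median log2 fold change was 0.08 for all collagens, and 0.01 for all genes tested. *Col1a1* was at 499.6, 643, 590.0 and 459 CPM in WT MI and 533, 712, 633 and 577 CPM in KO MI, with overlap. The log2 fold change came to 0.16 with a 95% interval of −0.04 to 0.36. For *Col3a1* the log2 fold change was 0.05, with an interval of −0.07 to 0.17, and for *Col4a1* it was 0.04, with an interval of −0.13 to 0.21. The larger values among the 21 genes described singly were those of *Col6a5* (1.99), *Col11a1* (0.81), *Col8a1* (0.77) and *Col9a2* (0.72), with adjusted p-values of 0.263, 0.259, 0.397 and 0.541 (edgeR). Without KO MI replicate 2 the log2 fold changes of *Col11a1*, *Col8a1* and *Col9a2* were 0.16, −0.0501 and −0.0597, and without KO MI replicate 3 that of *Col6a5* was −0.47. Without KO MI replicate 7, in contrast, *Col11a1*, *Col8a1*, *Col4a3* and *Col26a1* were DEGs.

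**Figure D4:**
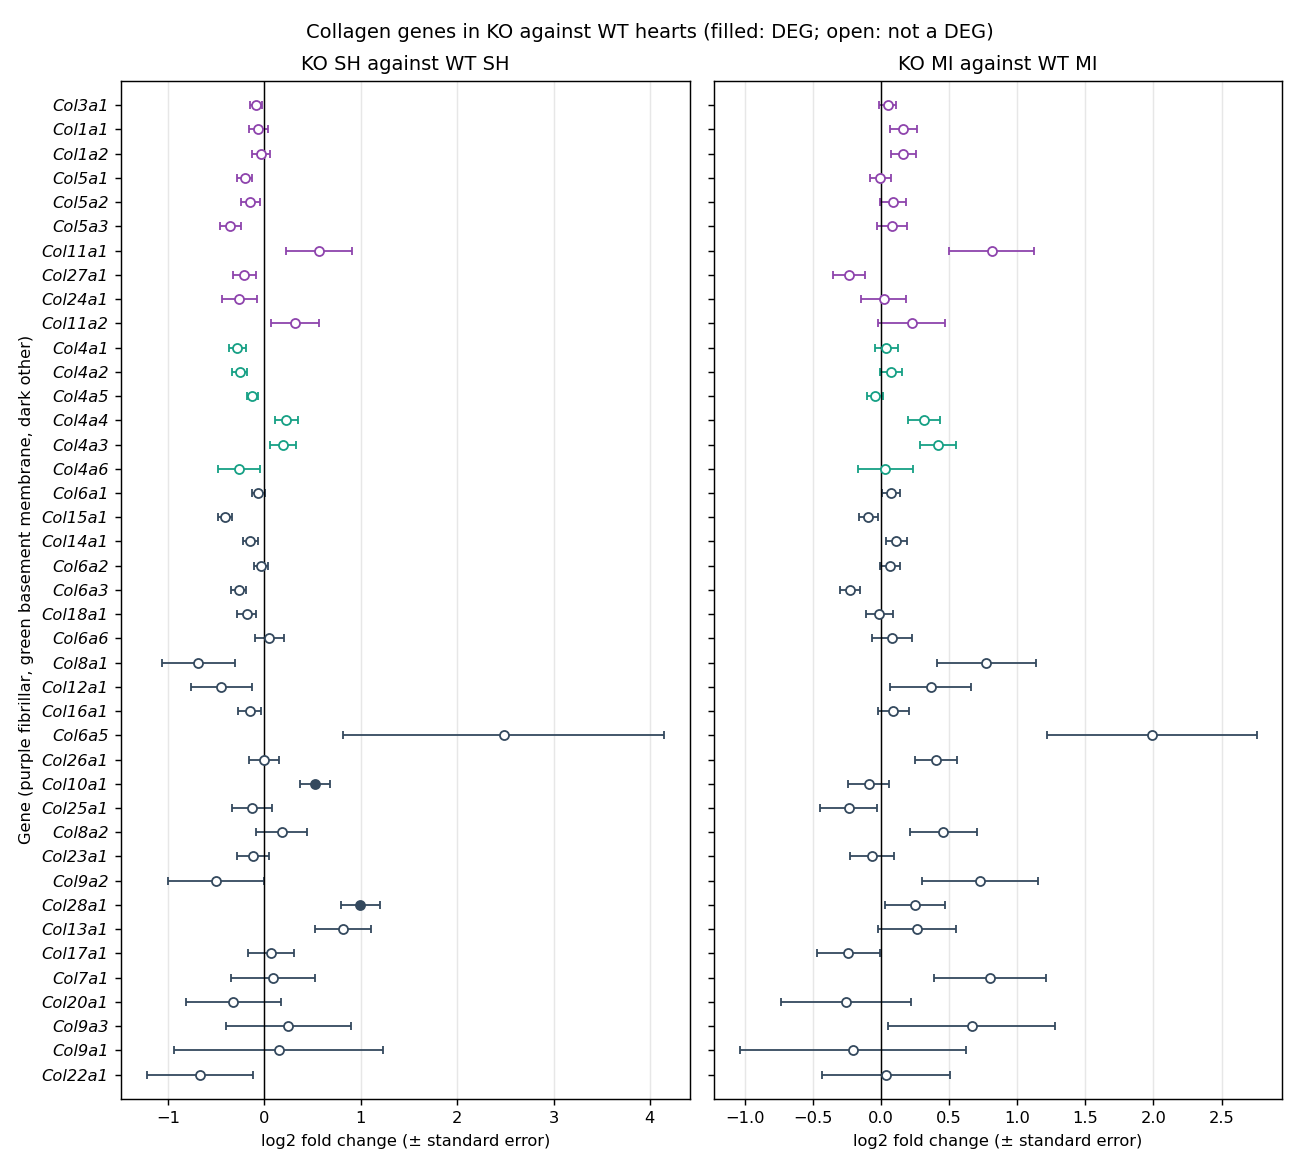
Log2 fold change with standard error of the 41 collagen genes tested, for KO SH against WT SH (left) and KO MI against WT MI (right), with DEGs filled. The left panel has 2 filled points, *Col28a1* and *Col10a1*, and the right panel, with an x axis of its own scale, has none.

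Whether the effect of the deletion differed between MI and sham was tested as an interaction. By edgeR 0 of the 41 collagen genes passed (0.0198% of all genes tested were higher and 0.00496% lower), as by DESeq2, which gave no adjusted p for 12 of them. An unadjusted p under 0.05 was found for 8 collagen genes by edgeR and for 8 by DESeq2. Of all 20159 genes tested, 2745 had one by edgeR. The 13 genes higher post-MI in KO hearts and the 4 higher in WT hearts are therefore counts from separate comparisons, and no single gene was shown to respond differently. For *Col8a1*, which was a DEG post-MI in KO but not in WT hearts, the interaction was 1.46 (SE 0.53, adjusted p = 0.247, edgeR), and 0.64 without KO MI replicate 2. For *Col15a1* it was 0.32 (SE 0.10, adjusted p = 0.206, edgeR), and for *Col28a1* −0.75 (SE 0.30, adjusted p = 0.287, edgeR).

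**Figure D5:**
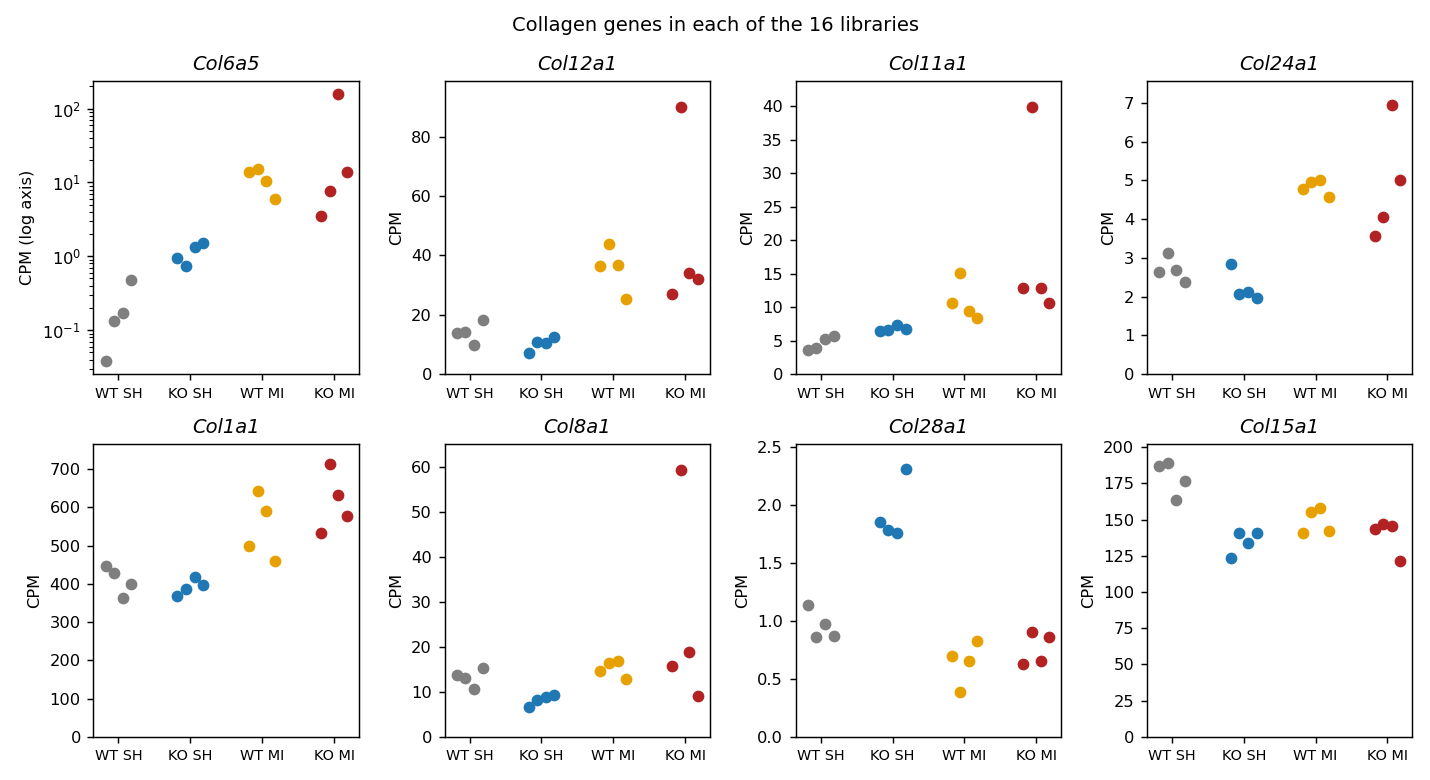
CPM of 8 collagen genes in each of the 16 libraries (*Col6a5* on a log axis, the others from 0), with the replicates of a group side by side. *Col12a1*, *Col11a1* and *Col8a1* have 1 KO MI library far above the rest, *Col28a1* is highest in the 4 KO SH libraries, and *Col15a1* is highest in the 4 WT SH libraries.

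Both pairs of abundant partner chains had close mean ratios in the 4 groups. *Col1a1* to *Col1a2*, the chains of type I collagen, had a mean CPM ratio of 1.51 in WT SH, 1.49 in KO SH, 1.45 in WT MI and 1.46 in KO MI. For *Col4a1* to *Col4a2*, whose starts lie 317 bases apart on opposite strands of chromosome 8, it was 1.48 in WT SH, 1.45 in KO SH, 1.5 in WT MI and 1.46 in KO MI. The divergent pair *Col4a5* and *Col4a6* on chromosome X, with starts 1282 bases apart, had more variable ratios. *Col4a5* exceeded *Col4a6* 37.1 ± 8.85 times in WT SH, 39 ± 4.41 times in KO SH, 25.3 ± 7.04 times in WT MI and 23.3 ± 5.02 times in KO MI (SD, n = 4). The WT SH libraries, 25 to 45.3, overlapped with the WT MI libraries, 19.6 to 35.6, while the KO SH libraries, 33.5 to 43.0, were all above the KO MI libraries, 19.7 to 30.8. The ratio of *Col3a1* to *Col1a1* was 2.18 ± 0.0624 in WT SH, 2.14 ± 0.0580 in KO SH, 1.85 ± 0.184 in WT MI and 1.71 ± 0.209 in KO MI. Its MI libraries, 1.40 to 2.03, were all below its SH libraries, 2.06 to 2.27. These ratios are descriptions and were not tested.

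The enzymes, receptors and proteases that act on collagen were read from 4 lists of 53 genes, of which 50 were tested. In KO MI against KO SH 11 were higher and 1 lower, in WT MI against WT SH 4 higher and 0 lower, in KO SH against WT SH 2 higher and 0 lower, and in KO MI against WT MI 1 higher and 0 lower. The shares of all genes tested in the same order were 5.31% higher and 2.11% lower, 2.13% and 0.645%, 2.48% and 2.53%, and 0.57% and 1.16%, so the counts in the comparisons of KO with WT are near the background. Of the 20 genes for modification and folding of the chains, 3 rose in KO MI against KO SH. Of the 13 genes for procollagen processing and crosslinking 4 rose in that comparison and 2 in WT MI against WT SH. *Lox*, the enzyme that starts crosslinks between collagen chains, was at 11.6, 14.1, 15.3 and 14.1 CPM in KO SH and at 29.4, 69.5, 47 and 21.2 CPM in KO MI, without overlap. The log2 fold change was 1.60 (SE 0.25, adjusted p = 0.0011, edgeR). In WT hearts *Lox* went from 14.3, 17.7, 14.3 and 17.4 CPM in WT SH to 35.3, 32.6, 28 and 26.7 CPM in WT MI, a log2 fold change of 0.95 (SE 0.24, adjusted p = 0.0444, edgeR). *Tll1*, a protease that cuts procollagen, was at 0.827, 0.936, 0.715 and 0.605 CPM in WT SH and higher in KO SH, at 1.87, 1.43, 1.73 and 1.31 CPM (log2 fold change 1.04, adjusted p = 0.0566, edgeR). It was also higher in WT MI than in WT SH (log2 fold change 1.06, adjusted p = 0.0866, edgeR).

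Of the 9 receptors, *Ddr1*, a tyrosine kinase that binds collagen, was the DEG of KO MI against WT MI. It was at 19.4, 19.3, 20.8 and 15.8 CPM in WT MI and at 24.9, 30.2, 28.2 and 33.5 CPM in KO MI. All KO MI libraries were higher, with a log2 fold change of 0.63 (SE 0.0922, adjusted p = 0.00119, edgeR). In sham hearts *Ddr1* was at 20.9, 21.1, 18.3 and 17.6 CPM in WT SH and 25.4, 25, 25.5 and 23.9 CPM in KO SH, a log2 fold change of 0.36 (SE 0.0927, adjusted p = 0.026, edgeR), under the fold threshold.

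Among the 11 genes of collagen degradation and its inhibitors, *Mmp9*, a gelatinase that inflammatory cells release, was at 0.0769, 0.0802, 0.229 and 0.29 CPM in WT SH and at 0.61, 2.65, 1.98 and 2.22 CPM in WT MI. The WT SH values of 0.0769 and 0.0802 CPM are near 3 counts, and the log2 fold change was 3.48 (SE 0.57, adjusted p = 0.0033, edgeR). In KO hearts it was 2.55 (SE 0.53, adjusted p = 0.00606, edgeR), from 0.18, 0.27, 0.334 and 0.289 CPM to 0.59, 0.866, 2.33 and 2.62 CPM. *Timp1*, an inhibitor of these proteases, was higher in WT MI than in WT SH (log2 fold change 0.97, adjusted p = 0.0436, edgeR) and in KO MI than in KO SH (1.42, adjusted p = 0.00243, edgeR). *Timp4*, the inhibitor most typical of heart, was higher in KO SH than in WT SH (0.62, adjusted p = 0.0744, edgeR) and fell by 0.68 from KO SH to KO MI on the log2 scale (adjusted p = 0.0392, edgeR).

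*Ctsk* encodes cathepsin K, a protease able to cut the collagen helix, and the filter had left it untested because its summed count in KO SH was 9. It was chosen for description after its values were seen. The WT SH libraries held 239, 137, 132 and 133 counts and the WT MI libraries 197, 230, 209 and 195, while the KO SH libraries held 3, 3, 1 and 2 and the KO MI libraries 3, 9, 15 and 8. All KO libraries were thus far below all WT libraries after either surgery. Over summed counts, scaled by library size, WT SH exceeded KO SH 71.9 times (95% interval 37.6 to 157.9, counting error only), and WT MI exceeded KO MI 24.4 times (17.4 to 35.3). In an edgeR fit with no filter on low counts the log2 fold changes were −6.07 (SE 0.30, adjusted p = 2.1e-13) and −4.59 (SE 0.24, adjusted p = 8.23e-13).

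Markers of other cells moved with the collagen genes in part of the comparisons, and their part in the results was not tested. Of all genes tested, 2.13% were higher in WT MI against WT SH and 5.31% higher in KO MI against KO SH. In KO SH against WT SH 2.48% were higher and 2.53% lower. The counts of markers are to be read beside these shares. The 8 markers of activated fibroblasts summed to 712 to 903 CPM in WT SH, 540 to 626 in KO SH, 929 to 1087 in WT MI and 881 to 1059 in KO MI. Of these 8, 3 were higher in WT MI than in WT SH, 6 rose from KO SH to KO MI, 3 were lower in KO SH against WT SH, and none was a DEG between KO MI and WT MI. The 8 general fibroblast markers summed to 420 to 505 CPM in WT SH, 374 to 416 in KO SH, 435 to 462 in WT MI and 351 to 477 in KO MI. Of these 8, 2 were lower and 0 higher in KO SH against WT SH. Macrophage markers summed to 48.9 to 56.4 CPM in WT SH, 40.3 to 48.6 in KO SH and 58.7 to 73.2 in WT MI. Of the 8, 3 were lower in KO SH against WT SH, and 7 rose from KO SH to KO MI. In KO MI their sum was 105.2 CPM in replicate 3, the library with the highest *Col6a5*, and 47.6 to 62.6 CPM in the other libraries. Epicardial markers summed to 63.8 to 68.1 CPM in WT SH and 64.9 to 70.8 in KO SH. Post-MI their sums were 80.5 to 101.7 CPM in WT MI and 69.4 to 112.1 in KO MI. Of the 8, 5 were higher in WT MI than in WT SH and 3 in KO MI than in KO SH. In sham hearts 4 of the 8 were higher and 1 was lower in KO than in WT, and the median gene rose by 1.18 on the log2 scale. The sums of the sham groups overlapped, and *Aldh1a2* held most of them, at 32.5 to 38.7 CPM in WT SH and 34.2 to 38.2 in KO SH.

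Skeletal muscle markers summed to between 306 and 454 CPM in the WT SH, KO SH and WT MI libraries. Most of this sum was *Ckm*, at 281 to 387 CPM in these libraries. In KO MI the sum was 738 CPM in replicate 2, the library with the highest *Col11a1*, *Col12a1*, *Col8a1* and *Col9a2*, and 398 to 450.4 CPM in the other libraries. *Acta1*, an actin of skeletal muscle that the developing heart also expresses, made up 410.2 CPM of the sum in replicate 2. Of the 6 skeletal muscle markers tested 5 were DEGs in KO MI against KO SH, and most of them were high in 2 libraries. *Myh8*, a myosin of newborn skeletal muscle, reached 42.3 CPM in KO MI replicate 2 and 58.5 CPM in replicate 7, while replicates 1 and 3 held 1.59 and 3.37 CPM. Replicate 7 held the lowest KO MI levels of *Col11a1* and *Col8a1*, 10.7 and 9.15 CPM. Its *Col12a1* and *Col9a2*, at 32.2 and 0.856 CPM, were not the lowest of KO MI.

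*Col10a1*, *Col11a1* and *Col9a2* are known from cartilage, and the 10 cartilage markers summed to 2.15 to 4.64 CPM in WT SH, 3.58 to 4.37 in KO SH, 3.82 to 7.13 in WT MI and 2.52 to 5.63 in KO MI. The median of this sum was 2.60 CPM in WT SH and 6.37 in WT MI. *Acan*, the large proteoglycan of cartilage, was at 0.673, 1.79, 1.14 and 2.35 CPM in WT SH and at 4.37, 4.48, 3.96 and 2.45 CPM in WT MI, without overlap, and rose by a log2 fold change of 1.37 (SE 0.29, adjusted p = 0.0166, edgeR). In KO MI against KO SH its log2 fold change was 0.25 (adjusted p = 0.631, edgeR). Between 3 and 6 of the 10 cartilage markers were at 0 in each library, and *Snorc* and *Matn1* were at 0 to 0.0262 CPM in every library. The 8 bone markers summed to 6.67 to 8.96 CPM in WT SH, 5.05 to 6.40 in KO SH, 14.2 to 34.0 in WT MI and 11.6 to 19 in KO MI. Most of that difference was in *Spp1*, which encodes osteopontin of bone and of inflammatory cells and which the filter left untested. *Spp1* was at 0.115, 0.187, 0.229 and 0.314 CPM in WT SH, 0, 0.108, 0.0417 and 0.0525 in KO SH, 6.79, 25.9, 24.3 and 18.9 in WT MI and 4.27, 9.82, 11.6 and 14.2 in KO MI, so that all MI libraries were above all SH libraries. The bone gene *Bglap* was at 0 in every library. The 6 keratinocyte markers summed to between 1.18 and 2.43 CPM, with *Krt5* at 0 in every library. *Krt14* was higher in WT MI than in WT SH (log2 fold change 2.40, adjusted p = 0.0316, edgeR) and in KO MI than in KO SH (3.17, adjusted p = 0.00283, edgeR).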

How the data were processed

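Ventricle RNA was depleted of ribosomal RNA and sequenced as strand-specific read pairs. The paper's methods name Skewer, STAR and RSEM on GRCm39, while the submitters' processing notes name cutadapt 3.4, HISAT2 2.2.1 and RSEM 1.1.17, so the aligner is uncertain. The authors deposited RSEM expected counts per gene, unnormalized and whole-numbered. RSEM divides shared reads between genes, which adds an error the counts do not show.

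Symbols, positions and canonical transcript lengths came from GENCODE M39. In R 4.3.3, edgeR 4.0.16 (limma 3.58.1) fitted TMM-normalized counts of all 16 libraries with one coefficient per group, and quasi-likelihood F-tests (two-sided) were adjusted by Benjamini-Hochberg over 20159 genes. CPM used TMM-scaled library sizes. Standard errors were taken from the F statistic, and 95% intervals are 1.96 standard errors to either side. DESeq2 1.42.0 was an alternative. The fit was tested on simulated data.

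The collagen genes, their classes, the gene lists and the tests were chosen with earlier results of these data known. Genes described singly are the collagen DEGs of any comparison, the 3 highest of each class per kilobase and, of the 4 pathway lists, the 3 DEGs with the largest change of each comparison of 2 groups. Replicate numbers did not pair libraries across groups, since 3 of 21 same-numbered pairs had deviations correlated above 0.1 (range −0.13 to 0.18). The alternatives left out each library in turn, dropped the fold threshold or the filter on low counts, or fitted the compared groups alone. Others added a replicate block or a yes-or-no covariate for summed Y-linked expression above 10 CPM, or used DESeq2 or its size factors.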

Additional observations from a re-analysis of the deposited data

Results flagged for a closer look

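In 8 of 100 sets of 4 libraries (21 genes and 4 summed levels in each of 4 groups), the most extreme library stood further from the others than Dixon's test allows. Chance flags about 1 in 20 such sets. KO MI replicate 2 was at 39.9 CPM of *Col11a1*, with the other KO MI libraries between 10.7 and 12.9, and at 90.0 CPM of *Col12a1*, with the others between 27.1 and 34.0. KO MI replicate 3 was at 156 CPM of *Col6a5* (others 3.52 to 13.8) and at 1131 CPM of *Col3a1* (others 999 to 1015). KO MI replicate 7 was low, at 121 CPM of *Col15a1* (others 143 to 147) and 52.2 CPM of *Col4a5* (others 62.5 to 64.4). In the sham groups *Col1a2* was low in KO SH replicate 1, at 246 CPM (others 269 to 271), and in WT SH replicate 3, at 244 CPM (others 278 to 282). The infarct size of each heart was not analysed here.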

How the results depend on the processing

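For KO MI against WT MI the count of collagen DEGs was 0 and became 2 with a replicate block (*Col26a1* and *Col4a3*), and 0 to 4 without one library, with 1 (*Col6a5*) without KO MI replicate 1 and 4 without KO MI replicate 7. For KO SH against WT SH the 2 DEGs became 4 with DESeq2 (*Col6a5* and *Col13a1* added), 6 with only the compared groups in the fit, 7 with no minimum fold change and 1 to 2 without one library. *Col13a1*, with a log2 fold change of 0.80 to 1.02, was a DEG there under 4 alternatives. For WT MI against WT SH the 4 DEGs became 11 with no minimum fold change and 3 to 6 without one library (6 without WT MI replicate 4). For KO MI against KO SH the 14 DEGs became 10 to 15 without one library, lowest without KO MI replicate 2, and 6 without KO MI replicates 2 and 3 together, an alternative chosen after seeing the data. The interaction count of 0 became 1 (*Col8a1*) with the replicate block and 0 to 2 without one library (*Col8a1* and *Col13a1* without KO MI replicate 7). The cause of these moves was not tested, other than fewer libraries or a wider rule where that is the alternative.

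In KO MI against WT MI the log2 fold change of *Col9a2* ran from −0.0597 (without KO MI replicate 2) to 0.99 without one library, that of *Col8a1* from −0.0501 (without KO MI replicate 2) to 1.05, and that of *Col6a5* from −0.47 (without KO MI replicate 3) to 2.37. Without KO MI replicates 2 and 3 together they were −0.32, −0.28 and −0.42. Of the values of single genes under the alternatives, 688 kept their direction and side of the threshold, 15 passed it newly, 21 no longer passed it and 6 turned. *Col9a1* failed the filter in 1 of the fits without a library, and no fit of the interaction with fewer groups exists. The replicate block changed no other collagen count by more than 1.5 times, and 4 of the 15 libraries with a same-numbered partner correlated best with it. At these depths levels under 0.0858 CPM are not told from absence, which limits *Col2a1*, *Col6a4*, *Col19a1* and the level of *Col6a5* in WT SH replicate 1.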

Other observations

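After *Ctsk* was seen to be low in all 8 KO libraries, the genes beside it were read as well. *Ctsk* lies on chromosome 3 of GRCm39, from 95406178 to 95416732 on the plus strand. Within 200 kb of it, 9 protein-coding genes were tested. *Arnt*, which ends next to *Ctsk* at 95404551, fell by 0.62 on the log2 scale in KO SH against WT SH (standard error 0.0511, adjusted p = 1.53e-06, edgeR) and by 0.51 in KO MI against WT MI (standard error 0.0510, adjusted p = 1.72e-05, edgeR). *Setdb1* fell by 0.51 in KO SH (adjusted p = 0.00024, edgeR) and by 0.45 in KO MI (adjusted p = 0.00144, edgeR), the latter under the fold threshold. The other 7 genes, *Ctss* beside *Ctsk* among them, were DEGs in neither comparison. These values rest on gene counts alone, and reads within *Ctsk* were not analysed here.

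In a fit with no filter, *Col6a4* was a DEG of KO MI against KO SH (log2 fold change 2.51, adjusted p = 0.0407, edgeR), where its summed counts went from 6 to 41, while in WT hearts they were 5 after sham surgery and 22 post-MI. *Mmp8*, a collagenase of neutrophils, was untested for its 6 counts in WT SH and had 129 in WT MI, while KO hearts had 30 after sham surgery and 75 post-MI. In the same fit without a filter its log2 fold change was 4.18 in WT MI against WT SH (adjusted p = 4.92e-05, edgeR) and 2.21 in KO SH against WT SH (adjusted p = 0.0484, edgeR).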
